A study of Mus musculus with 4 samples.

Results

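The collagen genes were read from single-cell RNA sequencing of mouse adipose tissue (AT). The family was taken as every gene symbol made of Col, a type number, the letter a and a chain number, which gave 44 members among 32290 features. They were sorted by the assembly their chains form into 11 fibrillar, 6 basement membrane, 6 beaded and 21 other collagens. The data were 4 libraries, 1 for each of WT and KO mice in subcutaneous (SC) and intraperitoneal (IP) AT. All groups were male, 7 months old, had 5 months of high-fat diet and carried Tie2e-cre with mTmG, a membrane Tomato to GFP reporter of recombination. The WT groups were TERT+/+ and the KO groups TERTfl/fl, so the recombinase was present in both and the floxed alleles of Tert, the catalytic subunit of telomerase, in the KO alone. Tie2 regulatory sequence drives the recombinase in endothelial cells (EC) and also in some blood cells. How many mice went into each library is not given, and the protocol names cells in 1 place and nuclei in another. AT suspensions in the study were made with collagenase and dispase and a spin that separates adipocytes. With 1 library per group, genotype, mouse, dissection and library cannot be told apart, no test was possible, and every 95% interval below covers counting error only.

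Collagens are secreted proteins whose 3 chains wind into a triple helix. Fibrillar collagens, with types I, III and V the common ones in soft tissue, pack into the fibres that carry load. Type IV collagens form the sheet-like network of basement membranes, which in AT surround each adipocyte and each capillary. Type VI chains assemble into beaded filaments at the border between that membrane and the fibres, and are abundant in fat. The remaining types sit on fibril surfaces (FACIT types such as XII, XIV and XVI), form short-chain networks (VIII), carry heparan or chondroitin sulphate beside basement membranes (XV and XVIII) or span the cell membrane (XVII, XXIII and XXV). Adipose stromal cells (ASC), the fibroblasts and preadipocytes of the tissue, are the known main source of this matrix.

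Depth and labels were checked first. The libraries held 700 to 2115 barcodes and 10015201 to 15533961 UMIs, where a UMI marks 1 captured RNA molecule. Tert had 3 UMIs over all barcodes of WT SC and 2 of KO SC, and 8 of WT IP against 9 of KO IP, and 0, 0, 8 and 8 in stromal cells, so the targeted gene gave no check of the genotype. KO SC shared 93 cell barcodes with WT IP, while the other pairs of libraries shared 0 or 1. A shared barcode held in KO SC a median of 1.71% (quartiles 1.64% and 1.78%) of the UMIs that it had in WT IP. Of the 189 stromal cells of KO SC, 69 carried such a barcode, with a median of 586 UMIs against 14452.5 in the other 120. They supplied 2.63% of the stromal UMIs of KO SC but held 33659 collagen CPM (UMIs per 1000000 UMIs of the cells named) against 17982 in the unshared cells. The source of the shared barcodes was not tested, and the KO SC ratios the results turn on are given with them and without them.

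Stromal cells held nearly all of the collagen message. Cells were sorted by marker genes, none of them a collagen, and 779 barcodes were stromal by Pdgfra, Dcn, Lum, Dpt, Serpinf1, Mfap5 and Clec3b. WT SC held 102 and KO SC 189, and the IP libraries 277 (WT) and 211 (KO), with a median of 19990, 5765, 23174 and 21409 UMIs. These cells held 95.2% of the 415255 collagen UMIs in all kept cells. T cells, which should lack collagen message, held 83, 129, 57 and 60 collagen UMIs in the same order of libraries, at 0.0696% to 0.186% of the stromal level in CPM. Macrophages held 64.2 CPM (51.0 to 79.8) in WT IP and 55.2 CPM (32.1 to 88.3) in KO IP, the 2 libraries with at least 20 of these cells.

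**Figure D1:**
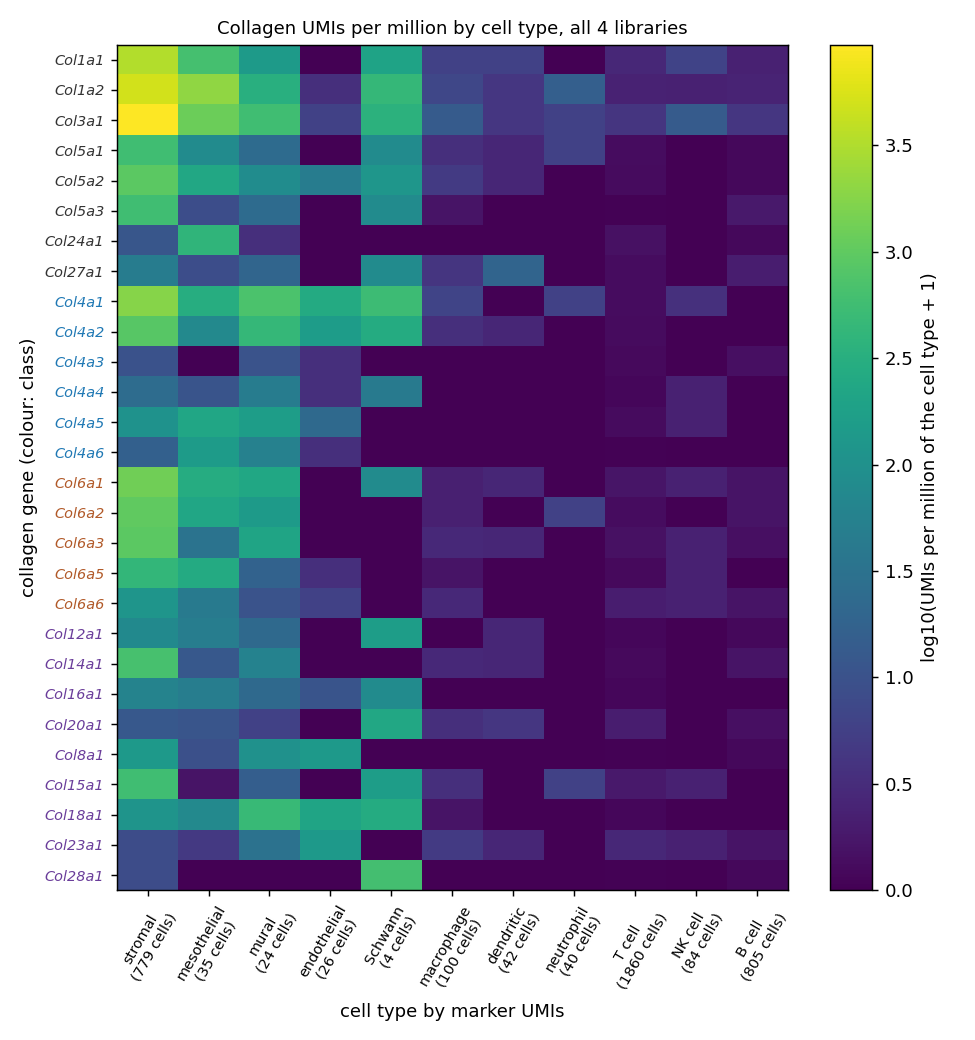
Heatmap of the 28 collagens with at least 100 stromal UMIs (rows, name coloured by class: black fibrillar, blue basement membrane, brown beaded, purple other) in 11 cell types (columns, cells of all 4 libraries summed). Colour is log10 of CPM plus 1. The stromal column is the brightest for most genes, Col24a1, Col4a5 and Col4a6 are brighter in mesothelial than in stromal cells, and the leukocyte columns are dark.

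The other matrix-making cells differed from stromal cells in their collagen repertoires. Mesothelial cells, which line the visceral surface and were seen in IP only (4 in WT IP, 31 in KO IP), held 6621 collagen CPM in KO IP (6493 to 6750). Col1a2 led there with 3460 UMIs over both libraries, followed by Col3a1 with 2018 and Col1a1 with 1046. These barcodes also held stromal markers, at 7460.5 CPM in WT IP and 9657 in KO IP, against 20843 and 21420 in stromal cells. Their median depth in KO IP was 52447 UMIs, against 21409 in stromal cells. Barcodes with markers of both types were not left out, and the part of stromal message in these values was not tested. Col24a1, a minor fibrillar chain, was mostly mesothelial, with 653 of 809 UMIs (80.7%) in 18 of these 35 cells. Of these 653 UMIs, 246 lay in 1 cell and 119 in another. In stromal cells Col24a1 had 146 UMIs, of which 113 lay in 1 cell and 20 in another. Mesothelial cells also held 249 of the 500 UMIs of Col4a6 and 366 of the 1966 of Col4a5, a pair of type IV chains that share a heterotrimer.

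Vessel and nerve cells were few, and their collagens are given as UMIs over all libraries. The 26 EC held 424 collagen UMIs, of which fibrillar chains made up 5.42% (3.47% to 8.03%) and basement membrane chains 44.6% (39.8% to 49.4%). Their main members were Col4a1 with 111 UMIs, Col18a1, the precursor of endostatin, with 87, Col4a2 with 66, Col8a1 with 59 and the transmembrane Col23a1 with 58. The 24 mural cells, the pericytes and smooth muscle cells around vessels, held 1701, with basement membrane chains at 35.3% (33.1% to 37.7%) and 300 UMIs of Col4a1. Mural cells also held 28 of the 35 UMIs of Col19a1, in 4 cells, and 12 of the 18 of Col25a1, in 5 cells. The 4 Schwann cells held 15 UMIs of Col28a1, a collagen known from peripheral nerve, and 10 of the 14 UMIs of Col11a1, all in 1 cell. With so few EC, the cells in which the recombinase is meant to act, KO was not compared with WT in them.

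Within stromal cells the family was dominated by fibrillar chains. Collagens made up 2.56% of the stromal UMIs in WT SC and 1.84% in KO SC, against 3.13% and 2.83% in WT IP and KO IP. Fibrillar members took 74.8% of these collagen UMIs in WT SC and 76.7% in KO SC (76.9% without the shared barcodes), against 68.0% and 71.6% in WT IP and KO IP. Basement membrane members took 7.25%, 7.82% (7.66%), 11.6% and 9.02% in the same order. Beaded members took 11.8%, 9.42% (9.23%), 14.7% and 13.2%. The other classes together took 5.61% to 6.18%. The IP libraries thus held larger basement membrane and beaded shares than the SC library of the same genotype. Of the 44 members, 28 had at least 100 stromal UMIs and are described in full. Another 12 had 1 to 99, Col8a2 the most with 77, and 4 had 0 (Col2a1, Col9a1, Col22a1 and Col25a1), of which Col2a1 and Col22a1 had no UMI in any kept cell. In the shallowest set of stromal cells, KO SC, 0 UMIs allows up to 1.79 CPM.

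**Figure D2:**
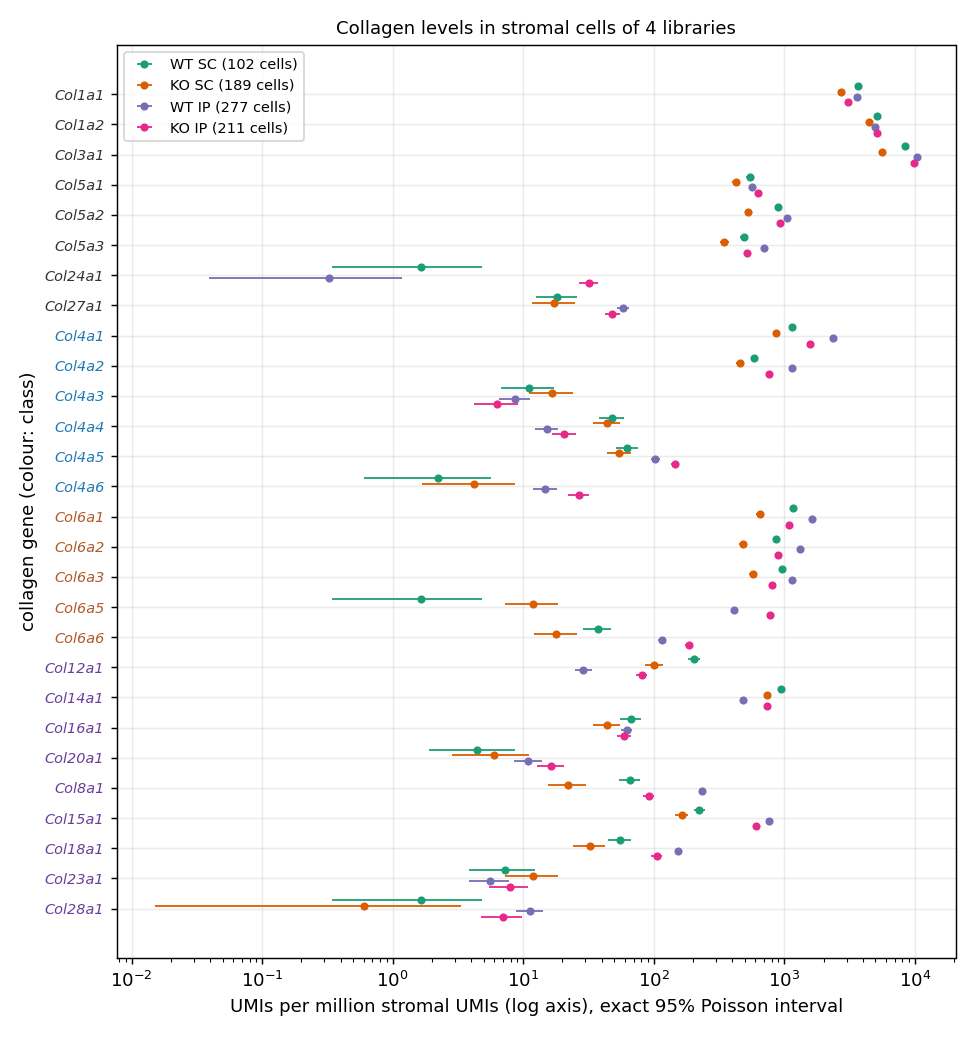
CPM in stromal cells (x, log axis) of the 28 collagens with at least 100 stromal UMIs (y, name coloured by class as in the heatmap) in the 4 libraries. Points are library values and bars exact Poisson 95% intervals of counting error, and a value of 0 is not drawn. Col3a1, Col1a2 and Col1a1 lie farthest right in every library, and Col6a5 lies near the left in SC and far to the right in IP.

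The highest members were fibrillar. In SC each of the 7 fibrillar members compared had a lower value in KO than in WT, as did 49.2% of all genes. The interval held 0 for Col27a1 alone. Differences are given as log2 ratios of CPM, KO over WT, with 0.5 UMI added and at least 20 UMIs in both libraries together. Col3a1, the type III chain of pliable tissue, measured 8438 CPM in WT SC and 5619.9 in KO SC, and 10392 in WT IP against 9894.5 in KO IP. KO SC was the low library for it, at a log2 ratio of -0.59 (-0.62 to -0.55), or -0.63 without the shared barcodes. In IP the ratio was -0.07 (-0.09 to -0.05).

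Type I collagen, the main protein of fibres, is made of chains from Col1a1 and Col1a2. Col1a1 measured 3688 CPM in WT SC and 2725 in KO SC, and 3607 in WT IP against 3055 in KO IP. Over all stromal cells both KO libraries lay below their WT library, by log2 ratios of -0.44 (-0.49 to -0.38) in SC and -0.24 (-0.27 to -0.21) in IP. Col1a2 measured 5101, 4434, 4931 and 5148 CPM in the same order of libraries. Its log2 ratio was -0.20 (-0.25 to -0.16) in SC, -0.21 without the shared barcodes, and 0.06 (0.04 to 0.09) in IP. In committed cells of SC, described below, KO was not the lower library for either gene. Col1a1 stood there at 4621 CPM in WT and 4704 in KO, and Col1a2 at 6655 and 6733. In progenitor-state cells of SC they stood at 3027 and 1781 CPM, and at 4035 and 3326 CPM. Neither chain differed much by depot in WT, where IP over SC was -0.03 (-0.07 to 0.01) for Col1a1 and -0.05 (-0.08 to -0.01) for Col1a2.

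Type V chains nucleate fibrils and set their width. Col5a2 measured 899 CPM in WT SC and 532 in KO SC, and 1058 in WT IP against 920.3 in KO IP. Col5a1 measured 545, 427, 565 and 630.3 CPM, and Col5a3 489.5, 348, 705 and 514 CPM. All were lowest in KO SC, where the log2 ratio to WT was -0.76 (-0.88 to -0.64) for Col5a2, -0.35 (-0.49 to -0.21) for Col5a1 and -0.49 (-0.65 to -0.34) for Col5a3. Without the shared barcodes these were -0.80, -0.37 and -0.54. In IP the type V chains did not move as 1, with -0.20 for Col5a2, 0.16 (0.09 to 0.23) for Col5a1 and -0.45 (-0.53 to -0.38) for Col5a3. Col27a1, a minor fibrillar chain known from cartilage, measured 18.3, 17.3, 58.7 and 48.3 CPM. It stood out by depot, with IP over SC at 1.66 (1.17 to 2.24) in WT and 1.45 (0.91 to 2.09) in KO. Col24a1 had 3, 0, 2 and 141 stromal UMIs, and KO IP held 28 without its top cell.

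The basement membrane chains were led by the Col4a1 and Col4a2 pair, which sits head to head on chromosome 8. In the GENCODE annotation of GRCm38, Col4a1 (ENSMUSG00000031502) spans 11198423 to 11312826 on the minus strand and Col4a2 (ENSMUSG00000031503) 11312805 to 11449287 on the plus strand, and their 5′ ends overlap by 22 bases with no gene between. The promoter windows of RefSeq (GRCm38.p6) of 300 bases around each start are printed because the genes lie head to head and had the same order of libraries. Capitals mark the 78 bases that both windows share, read from opposite strands. Col4a1 is chr8:11312777-11313076 on the minus strand and Col4a2 chr8:11312555-11312854 on the plus strand.
Col4a1: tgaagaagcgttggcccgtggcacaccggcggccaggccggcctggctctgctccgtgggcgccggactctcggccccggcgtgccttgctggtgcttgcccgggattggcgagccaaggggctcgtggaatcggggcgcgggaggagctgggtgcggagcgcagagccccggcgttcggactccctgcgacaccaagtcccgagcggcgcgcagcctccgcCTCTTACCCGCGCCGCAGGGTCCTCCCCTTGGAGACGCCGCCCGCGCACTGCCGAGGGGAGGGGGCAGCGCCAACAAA
Col4a2: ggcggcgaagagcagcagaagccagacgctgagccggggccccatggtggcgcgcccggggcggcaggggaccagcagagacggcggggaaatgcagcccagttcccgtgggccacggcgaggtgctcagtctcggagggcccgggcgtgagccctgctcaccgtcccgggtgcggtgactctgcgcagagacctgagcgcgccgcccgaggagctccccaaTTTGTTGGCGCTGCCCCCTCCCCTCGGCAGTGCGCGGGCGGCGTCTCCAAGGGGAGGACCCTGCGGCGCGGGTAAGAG
Their GC content was 74% and 73.7%, and that of Col4a1 was above 95.2% of the 32851 promoter windows. Both windows hold CCAAT and GGGCGG on either strand, which 37.4% and 35.7% of all windows also hold.

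Col4a1 measured 1146 CPM in WT SC and 858 in KO SC, and 2356 in WT IP against 1587 in KO IP. Col4a2 measured 589.7, 461, 1152 and 764 CPM. Over all stromal cells the 2 genes had the same order of libraries, with IP above SC and WT above KO in both depots. In progenitor-state cells of SC, described below, KO was not the lower library. Col4a1 stood there at 105 CPM in WT and 126 in KO, and Col4a2 at 49.3 and 60.5 CPM. In committed cells of SC they stood at 3636 and 2897 CPM, and at 1787 and 1573 CPM. In IP too the genotypes lay close in progenitor-state cells, with Col4a1 at 1503 CPM in WT and 1494 in KO, and Col4a2 at 697 and 654. In committed cells of IP they stood at 2990 and 2349 CPM, and at 1508 and 1127 CPM. For Col4a1 the KO over WT log2 ratio was -0.42 (-0.52 to -0.32) in SC, -0.49 without the shared barcodes, and -0.57 (-0.61 to -0.53) in IP. For Col4a2 it was -0.35 (-0.49 to -0.22) in SC, -0.41 without them, and -0.59 (-0.65 to -0.53) in IP. With each cell weighted equally the SC ratios turned to 0.18 and 0.23, which they did not once the shared barcodes were left out. IP over SC was 1.04 (0.97 to 1.11) and 0.97 (0.87 to 1.06) in WT, and 0.89 and 0.73 in KO (0.96 and 0.79 without the shared barcodes). The UMIs of Col4a1 per UMI of Col4a2 were 1.94 (1.80 to 2.09) in WT SC, 1.86 (1.70 to 2.03) in KO SC, 2.04 (1.99 to 2.10) in WT IP and 2.08 (1.99 to 2.17) in KO IP, with overlapping intervals between WT and KO in each depot. UMIs count captured 3′ ends and were not divided by length, so this ratio is compared between libraries and is not a ratio of chains.

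The minor type IV chains went other ways. Col4a3 and Col4a4 form a head-to-head pair on chromosome 1, 71 bases apart, and their chains join that of Col4a5 in kidney basement membrane. Col4a4 measured 47.6 CPM in WT SC and 43.7 in KO SC, and 15.2 in WT IP against 20.65 in KO IP, and Col4a3 11.1, 16.7, 8.64 and 6.28 CPM. Col4a4 was thus higher in SC, with IP over SC at -1.65 (-2.09 to -1.21) in WT and -1.08 (-1.54 to -0.62) in KO. Col4a5 and Col4a6, head to head on chromosome X with 1308 bases between, were higher in IP. Col4a5 measured 62.6, 54.4, 103 and 146 CPM and Col4a6 2.21, 4.19, 14.7 and 26.7 CPM. In IP both were higher in KO than in WT, at 0.50 (0.34 to 0.66) and 0.86 (0.46 to 1.28), opposite to Col4a1 and Col4a2. Mesothelial cells, which held much Col4a5 and Col4a6, numbered 31 for KO IP against 4 for WT IP. The summed mesothelial markers in stromal cells stood at 20.5 and 14.4 CPM in WT SC and KO SC, and at 0.978 and 4.04 CPM in WT IP and KO IP. Their part in these values was not tested.

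The common chains of beaded type VI collagen, Col6a1, Col6a2 and Col6a3, were lower in KO in both depots over all stromal cells. Col6a1 measured 1163 CPM in WT SC and 649 in KO SC, and 1623 in WT IP against 1085.5 in KO IP. Col6a2 measured 863, 481, 1319 and 888 CPM. Col6a3 measured 959, 572, 1139 and 806 CPM. KO over WT was -0.84 (-0.95 to -0.74), -0.84 (-0.97 to -0.72) and -0.74 (-0.86 to -0.63) in SC for the 3 genes in this order. Without the shared barcodes these were -0.90, -0.90 and -0.78. In IP they were -0.58 (-0.63 to -0.53), -0.57 (-0.63 to -0.52) and -0.50 (-0.56 to -0.44). Over all stromal cells the 3 genes thus kept close to each other in both comparisons. In progenitor-state cells of IP, described below, Col6a1 measured 1033 CPM in WT and 926 in KO, and Col6a2 880 and 788. Col6a3 measured 738 and 796 CPM there, so KO was not the lower library for it. In committed cells of IP, and in progenitor and committed cells of SC, all 3 were lower in KO.

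Col6a5 and Col6a6 encode chains that can stand in for the Col6a3 chain, and in stromal cells both were higher in IP than in SC. Col6a5 had 3 stromal UMIs in WT SC (1.66 CPM) and 20 in KO SC, against 2528 in WT IP (412 CPM) and 3439 in KO IP (772 CPM). All 20 in KO SC lay in barcodes shared with WT IP, and the 120 unshared cells held 0. Against the 3 UMIs that a count of 0 allows over those cells, KO IP was at least 419-fold higher than KO SC. In WT, IP over SC was a log2 ratio of 7.73 (6.41 to 10.23). KO IP was higher than WT IP, by 0.91 (0.83 to 0.98). Col6a6 measured 37.1 CPM in WT SC and 17.9 in KO SC, and 116 in WT IP against 186 in KO IP. Its KO over WT ratio was -1.03 (-1.72 to -0.41) in SC, -1.09 without the shared barcodes, and 0.68 (0.53 to 0.82) in IP. IP over SC for Col6a6 was 1.64 (1.29 to 2.03) in WT and 3.35 (2.85 to 3.95) in KO. Before thinning, a UMI of Col6a5 was found in 66.1% of the stromal cells of WT IP and 66.4% of those of KO IP. With cells thinned to 2000 UMIs, the shares were 35.8% (254 cells, 23 shallower ones left out) and 45.5% (191 cells, 20 left out), against 0.806% and 0% of T cells of the same libraries, whose median depths were 7721 and 7858 UMIs. In SC no thinned stromal cell held one (0 of 90 and 0 of 113).

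Col6a6, Col6a5 and Col6a4 stand in a row on the minus strand of chromosome 9, with 27917 and 28810 bases between them and no other gene. Col6a5 (ENSMUSG00000091345) spans 105856078 to 105960643 and Col6a6 (ENSMUSG00000043719) 105687809 to 105828160. Col6a4 had 14 stromal UMIs. The promoter windows of the neighbours that were both higher in IP are printed with GGGCGG on either strand in capitals. Col6a5 is chr9:105960594-105960893 and Col6a6 chr9:105828036-105828335, both on the minus strand.
Col6a5: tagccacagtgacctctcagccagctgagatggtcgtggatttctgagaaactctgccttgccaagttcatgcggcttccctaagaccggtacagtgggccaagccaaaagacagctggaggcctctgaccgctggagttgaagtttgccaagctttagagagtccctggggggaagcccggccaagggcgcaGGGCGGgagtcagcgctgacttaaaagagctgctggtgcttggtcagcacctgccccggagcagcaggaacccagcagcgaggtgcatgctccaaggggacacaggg
Col6a6: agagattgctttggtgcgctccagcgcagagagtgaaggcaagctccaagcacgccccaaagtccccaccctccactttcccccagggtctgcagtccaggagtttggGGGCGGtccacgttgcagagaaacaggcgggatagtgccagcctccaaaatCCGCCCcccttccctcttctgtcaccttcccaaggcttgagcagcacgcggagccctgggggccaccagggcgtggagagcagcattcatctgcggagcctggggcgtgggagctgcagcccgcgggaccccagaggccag
The motif occurred once in the first and at 2 places in the second. Of the 35 members with a promoter window, 22 held it in at least 1 window, and of the 38 windows of these members 23 did, against 35.7% of all windows.

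Among the fibril-associated collagens, Col14a1 and Col12a1 were higher in SC than in IP over all stromal cells of WT. For Col14a1 the WT depots lay closer within the progenitor and committed states described below. Its values there were 1295 and 231 CPM in SC against 1119 and 195 CPM in IP. Col14a1, which coats fibrils in loose connective tissue, measured 936 CPM in WT SC and 737 in KO SC, and 479.7 in WT IP against 737 in KO IP. Col12a1, a related chain of dense tissue, measured 203, 100.5, 28.8 and 80.8 CPM. WT IP was the low library for both. KO over WT was negative in SC, at -0.34 (-0.45 to -0.24) and -1.01 (-1.28 to -0.74), and positive in IP, at 0.62 (0.55 to 0.69) and 1.48 (1.22 to 1.75). Without the shared barcodes the SC values were -0.34 and -0.97. Col12a1 in KO IP rested on few cells, since 73 and 71 of its 360 UMIs lay in 2 cells. Col16a1 measured 66.4, 43.7, 62.1 and 59.0 CPM, and Col20a1 4.43, 5.98, 10.9 and 16.4 CPM.

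The multiplexins Col15a1 and Col18a1, which lie at basement membranes, followed Col4a1 in direction. Col15a1 measured 223 CPM in WT SC and 163 in KO SC, and 761 in WT IP against 611 in KO IP. Its IP over SC ratio was 1.77 (1.62 to 1.92) in WT and 1.90 (1.72 to 2.09) in KO. Its KO over WT ratio was -0.45 (-0.68 to -0.23) in SC, -0.51 without the shared barcodes, and -0.32 (-0.39 to -0.25) in IP. Col18a1 measured 54.8, 32.3, 154 and 105 CPM, with KO over WT at -0.76 (-1.27 to -0.27) in SC, -0.86 without the shared barcodes, and -0.56 (-0.72 to -0.40) in IP. Equal weights turned the SC ratios to 0.30 and 0.52 with the shared barcodes in, and not with them out.

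Col8a1, the short-chain collagen known from vessel walls and Descemet's membrane, had the most negative KO over WT ratio of the family in both depots. It measured 65.9 CPM in WT SC and 22.1 in KO SC, and 234 in WT IP against 91.4 in KO IP. The ratios were -1.56 (-2.15 to -1.03) in SC, -2.20 without the shared barcodes, and -1.35 (-1.52 to -1.20) in IP. The SC ratio was 1.24 with each cell weighted equally, and stayed negative when the shared barcodes were left out as well. Its UMIs were in 12 of 102, 17 of 189, 113 of 277 and 40 of 211 stromal cells, whose depths were unequal. In cells thinned to 2000 UMIs, with the shallower ones left out, the shares with a UMI were 8.89%, 2.65%, 16.1% and 8.38%, against 0% of T cells in every library, whose median depths were 7721 to 9206.5 UMIs. Col23a1 measured 7.20, 11.96, 5.54 and 7.86 CPM, and Col28a1 1.66, 0.598, 11.2 and 6.96 CPM.

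Read across the family, SC showed lower collagen in KO. In SC 24 members were compared, and 21 had a lower value in KO, as did 49.2% of all genes, with a median log2 ratio of -0.44 against 0.01 over all 9774 genes compared. The summed family stood at 25628 CPM in WT SC and 18395 in KO SC, a log2 ratio of -0.48 (-0.50 to -0.46), or -0.51 (-0.53 to -0.49) without the shared barcodes. By class it was -0.44 for fibrillar, -0.37 for basement membrane, -0.80 for beaded and -0.48 for other collagens, and without the shared barcodes -0.47, -0.43, -0.87 and -0.49. With each cell weighted equally the family ratio was -0.18 and that of the basement membrane class 0.21, and with the shared barcodes also left out the family ratio was -0.70. A log2 ratio past 1 in size, which is a 2-fold difference, was seen for 3 members lower in KO (Col8a1, Col6a6 and Col12a1) and 1 higher (Col6a5). Over all genes compared 2.7% were lower and 2.7% higher by as much. Without the shared barcodes 2 of 23 members were lower by 2-fold (Col8a1 and Col6a6) and 0 higher. Of all genes compared in that setting 2.89% were lower and 2.79% higher by as much. A few cells carried much of the KO SC sum, since 638 of the 4556 UMIs of Col1a1 and 1070 and 1069 of the 9396 of Col3a1 each lay in 1 cell. Counted per cell, in unshared stromal cells of at least 2000 UMIs, the median was 18139 collagen CPM in WT SC (quartiles 11811 and 31944, 90 cells) and 8665 in KO SC (5674 and 15469, 113 cells).

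IP gave a smaller and mixed picture. The family stood at 31335 CPM in WT IP and 28264 in KO IP, a log2 ratio of -0.15 (-0.16 to -0.14). Of 29 members compared, 16 were lower and 13 higher in KO, where 43.4% of all genes were lower, with a median of -0.07 against 0.06 over 12323 genes. The classes differed in size, with -0.07 for fibrillar, -0.52 for basement membrane, -0.30 for beaded and -0.02 (-0.06 to 0.02) for other collagens. Col8a1 alone was lower by 2-fold, where the share over all genes was 2.31%. Col24a1, Col12a1 and Col8a2 were higher by 2-fold, where the share over all genes was 3.74%. Of the 141 stromal UMIs of Col24a1 in KO IP 113 lay in 1 cell, and Col8a2 rested on 48 UMIs in KO IP against 27 in WT IP.

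**Figure D3:**
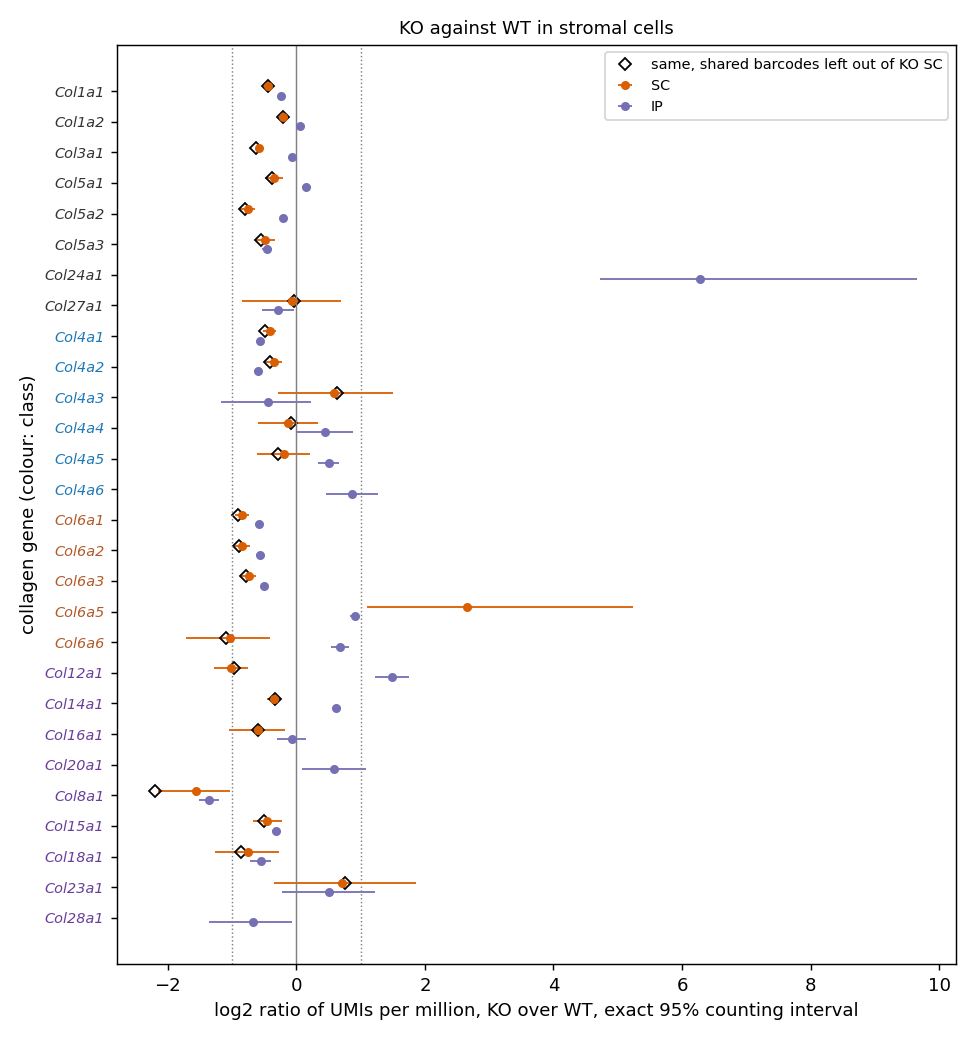
Log2 ratio of CPM, KO over WT (x), of each collagen with at least 20 UMIs in the pair of libraries (y), in stromal cells of SC (orange) and IP (violet), with exact 95% counting intervals. Open diamonds leave the shared barcodes out of KO SC, and dotted lines mark 2-fold. Most SC points lie left of 0, while in IP Col6a5, Col6a6, Col12a1 and Col14a1 lie to the right.

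Most members were higher in IP than in SC. In WT, 20 of 28 members were higher in IP, with a median log2 ratio of 0.57 against 0.07 over 11711 genes and a summed ratio of 0.29 (0.28 to 0.30). Members higher by 2-fold numbered 11, where 9.11% of all genes were, and members lower by 2-fold 2 (Col12a1 and Col4a4), where 6.48% were. In KO, 24 of 29 were higher in IP, with a median of 0.82 against 0.09 over 11350 genes and a summed ratio of 0.62 (0.60 to 0.64), or 0.65 without the shared barcodes. With each cell weighted equally the KO sum was 0.16, or 0.69 once the shared barcodes were also left out, and within the committed and F3 states described below IP was the lower depot in both genotypes. Over all genes 55.4% were higher in IP in WT and 57% in KO. In KO 12 members were higher by 2-fold, where 10.7% of all genes were, and 2 lower (Col4a3 and Col4a4), where 6.1% were. The WT and KO ratios of a depot pair come from separate libraries, but the IP over SC and the KO over WT ratios share libraries, so they are not independent of each other. By class, IP over SC in WT was 0.97 for basement membrane, 0.61 for beaded, 0.17 for other and 0.15 for fibrillar collagens. In KO it was 0.83, 1.11, 0.63 and 0.52 in the same order (0.89, 1.17, 0.64 and 0.55 without the shared barcodes), so the class with the highest ratio differed. Of the 3739 CPM of the beaded class in KO IP, 772 came from Col6a5, which had 0 UMIs in the unshared cells of KO SC. Class ratios without Col6a5 were not computed.

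**Figure D4:**
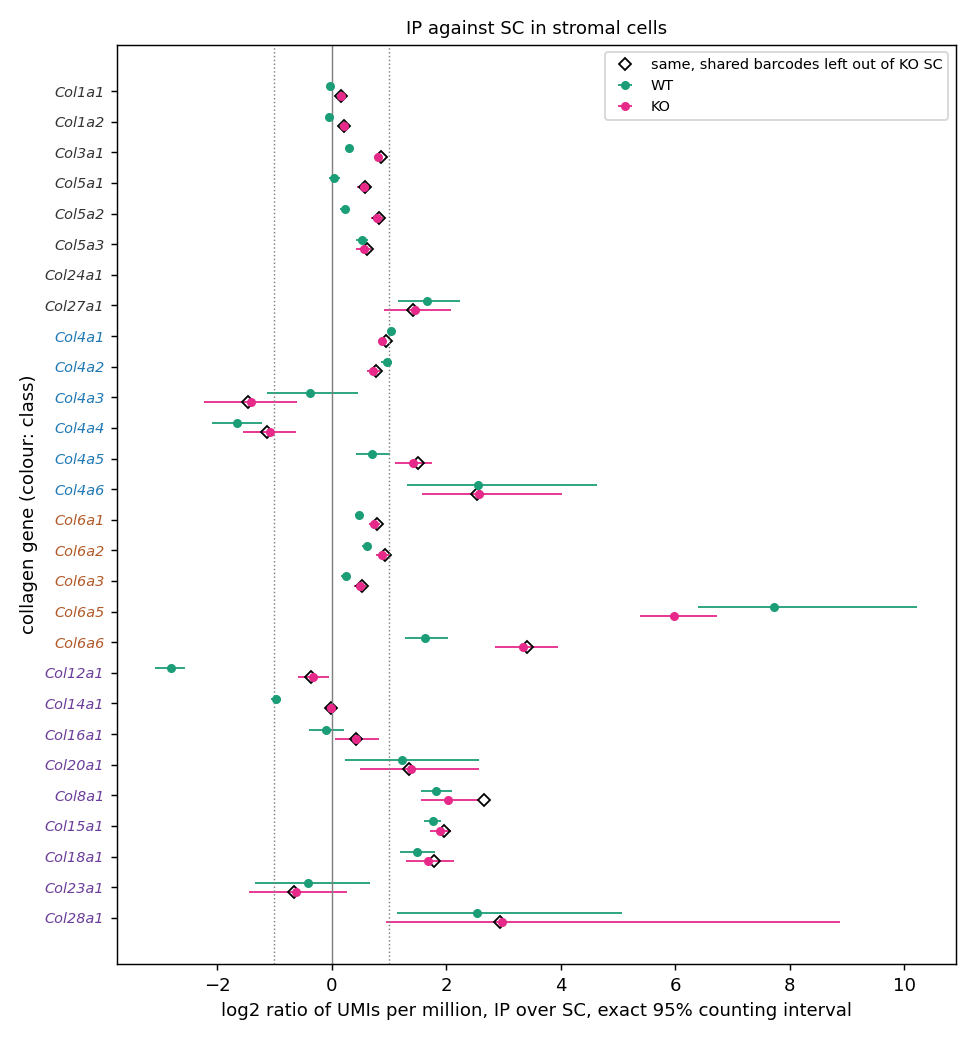
Log2 ratio of CPM, IP over SC (x), of each collagen compared (y), in stromal cells of WT (green) and KO (pink), with exact 95% counting intervals. Open diamonds leave the shared barcodes out of KO SC, dotted lines mark 2-fold, and members at 0 UMIs in a library are not drawn. Col6a5 lies farthest right and Col12a1 of WT farthest left.

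ASC are known to span a range from Dpp4-marked progenitors to committed preadipocytes and F3-marked cells. Each unshared stromal cell was placed by which of 3 lists, none holding a collagen, had most genes seen. This cuts a range rather than cell types. The leading list was ahead by no more than 1 gene of a 7-gene list in 16 of 102 cells of WT SC, 11 of 120 of KO SC, 117 of 277 of WT IP and 92 of 211 of KO IP. Progenitor-state cells made up 58.8% (48.6% to 68.5%) of WT SC, 72.5% (63.6% to 80.3%) of KO SC, 23.1% (18.3% to 28.5%) of WT IP and 26.1% (20.3% to 32.5%) of KO IP. The split has unequal depth, since the 23 committed cells of WT SC had a median of 3685 UMIs and its 60 progenitor cells 21247.5. The F3 cells of WT SC, and the committed and F3 cells of KO SC, numbered 16, 14 and 19.

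In SC the progenitor state was the low-collagen state. It held 15948 collagen CPM in WT SC and 10570 in KO SC, against 48621 and 38213 in the committed state. The largest gap was in the basement membrane class, with 244 and 258 CPM in progenitor cells against 5634 and 4712 CPM in committed cells. Col4a1 measured 105 CPM in progenitor cells of WT SC and 3636 in committed ones, and Col15a1 4.32 and 810.4 CPM. Col14a1 went the other way, with 1295 against 231 CPM. In IP the states were closer, at 27756 to 35033 collagen CPM in WT IP and 27517 to 29816 in KO IP, and the progenitor cells of WT IP held 1503 CPM of Col4a1. Col14a1 was again highest in progenitor cells, at 1119 CPM in WT IP and 1276 in KO IP.

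Comparisons within a state differed from those over all stromal cells. In SC, KO over WT for the summed family was -0.59 (-0.63 to -0.56) in progenitor cells, -0.35 (-0.38 to -0.31) in committed cells and -0.01 (-0.06 to 0.03) in F3 cells. In IP it was 0.06 (0.04 to 0.08), -0.23 (-0.25 to -0.21) and -0.16 (-0.18 to -0.15). IP over SC was 0.80 (0.77 to 0.82) in progenitor cells of WT and 1.45 (1.42 to 1.48) in those of KO. In committed cells it was -0.47 (-0.50 to -0.45) in WT and -0.36 (-0.39 to -0.32) in KO, and in F3 cells -0.23 and -0.38, so that outside the progenitor state IP was the lower depot. For Col4a1 the WT depot ratio was 3.84 in progenitor cells, -0.28 in committed cells and -0.02 in F3 cells. Col6a5 was higher in IP in every state and genotype, by 6.42 or more in the states of WT where SC held any of its UMIs, while in KO SC every state was at 0.

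**Figure D5:**
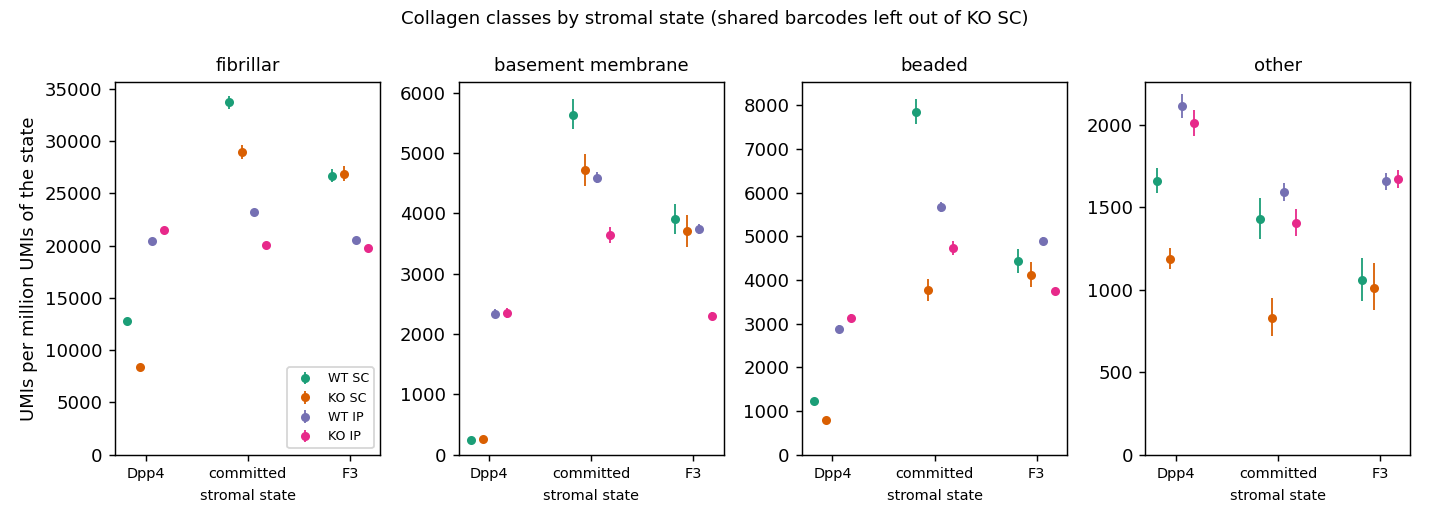
Collagen CPM of the state (y, from 0) by stromal state (x) and class (panels) in the 4 libraries, with exact Poisson 95% intervals and the shared barcodes left out of KO SC. In SC the Dpp4 state lies far below the committed state for the fibrillar, basement membrane and beaded classes, and in IP the states lie closer together.

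The genes that fold, cut, bind and link collagen were described from lists. Enzymes and chaperones of hydroxylation and folding included Serpinh1, the collagen chaperone HSP47, at 968 CPM in WT SC and 889 in KO SC, and 1576 in WT IP against 1504 in KO IP. Their second highest gene, Ppib, had KO over WT at -0.47 (-0.60 to -0.34) in SC and -0.50 (-0.57 to -0.43) in IP. Fkbp14, a prolyl isomerase, had the widest difference of the list in SC, -1.27 (-1.84 to -0.74). Of the list's 19 genes, 14 of 16 compared in SC and 16 of 19 compared in IP had lower values in KO, where 49.2% and 43.4% of all genes did. Of these 14 and 16 list genes, 7 and 11 lay beyond counting error, a share that was not computed over all genes. The medians were -0.27 (-0.35 without the shared barcodes) and -0.39. In IP P3h2 had the widest value, -0.73 (-1.87 to 0.26).

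Secretion genes had medians of -0.05 in SC and 0.07 in IP over 7 genes, and a summed ratio of -0.18 (-0.30 to -0.06) in SC. Mia3, which loads procollagen into large carriers, had -0.48 (-0.72 to -0.24) in SC and 0.23 (0.08 to 0.37) in IP, and Sec31a -0.05 and 0.12. Sec13 had the widest values of the list, -0.65 in SC and -0.33 in IP. Among genes of procollagen cleavage the medians were -0.38 in SC (8 compared) and 0.09 in IP (7 compared). Pcolce, the enhancer of C-terminal cleavage, had -0.54 (-0.69 to -0.40) in SC and -0.87 (-0.94 to -0.79) in IP. Adamts2, which removes the N-terminal propeptide, had -0.42 and 0.03, Tll1 -1.86 (-3.72 to -0.51) in SC and Tll2 1.48 (0.74 to 2.28) in IP. The cross-linking list was lower in KO SC for 5 of 6 genes, where 49.2% of all genes were lower, with a median of -0.43 in SC and 0.06 in IP. Its leading genes, the lysyl oxidases Loxl1 and Lox, had -0.46 and -0.24 in SC against 0.12 and 0.42 in IP, and Loxl3 -0.82 (-1.38 to -0.29) in SC.

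Proteins that organise fibrils gave both directions. Dcn, the proteoglycan decorin and a marker used to find the cells, measured 9251 CPM in WT SC and 12487 in KO SC, and 11723 in WT IP against 13309 in KO IP, so it was higher in KO while most collagens were lower in SC. Sparc, a collagen-binding glycoprotein, measured 6599, 4007, 7693 and 5698 CPM, at -0.72 (-0.76 to -0.68) in SC and -0.43 (-0.46 to -0.41) in IP. Fmod had -1.62 (-2.93 to -0.57) and -0.91 (-1.42 to -0.44). The 9 genes of this list had medians of -0.41 in SC and -0.15 in IP. Collagen receptors had medians of -0.34 in SC (7 compared) and 0.05 in IP (8 compared), with Ddr2 at -0.18 and 0.30, Itgb1 at -0.33 and -0.19, Ddr1 at -0.53 (-1.40 to 0.29) in SC and Itga2 at 0.80 (-0.05 to 1.69) in IP. Basement membrane partners of type IV collagen were listed as laminins, nidogens, Hspg2 and Agrn. They had medians of -0.39 in SC (-0.40 without the shared barcodes) and 0.09 in IP over 9 compared genes. Nid1 had -0.47 (-0.56 to -0.38) and 0.20 (0.15 to 0.26), Lama2 -0.69 and -0.03, and Agrn 0.74 (0.16 to 1.33) in IP.

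Markers of the stromal states and of other cells moved beside these values. The 7 progenitor genes had a summed KO over WT ratio of -0.18 in SC and 0.49 in IP, and Pi16, the highest of them, had -0.18 and 0.88. Their second, Anxa3, had 0.07 and 0.54, and Wnt2 -0.51 and -1.72. The committed list had -0.15 and -0.31, led by Lpl with -0.43 and -0.22 and Fabp4 with 0.10 and -0.69, while Icam1 had 0.57 in SC and Cd36 -3.74 (-6.27 to -2.34) in IP. The F3 list had -0.61 and -1.25, where Mgp, most of the list by UMIs, had -1.07 (-1.55 without the shared barcodes) and -1.49 and F3 itself 0.03 and -0.02. Stromal genes outside the matrix had -0.10 and 0.25, with Ddr2 as above, Cd248 at -0.32 and 0.12, Fap at -0.64 in SC and Scara5 at 0.97 in IP. Of the adipocyte list, Adipoq had 0, 0, 2 and 0 UMIs and Plin1 0, 0, 2 and 1, and only Plin4 was compared, at 1.33 (0.05 to 2.90) in SC and -0.84 (-2.40 to 0.43) in IP. The lymph node list stood at 59.2 CPM in WT SC and 75.4 in KO SC, and 70.2 in WT IP against 107 in KO IP. Its Cxcl13 had 0.35 in SC and 1.40 (1.14 to 1.66) in IP, Ccl19 -0.72 (-1.96 to 0.38) and -0.49, and Grem1 had 20 UMIs in WT IP and 0 in KO IP. Leaving out the shared barcodes kept the sign of the SC median of every partner list, with values from -0.47 for cross-linking to -0.06 for secretion. The part of these markers in the collagen values was not tested.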

How the data were processed

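The authors deposited tables of raw UMI counts from Chromium 3′ libraries, and the file headers name Cell Ranger 7.0.0. The submitters' processing notes also name STAR 2.6 and mm10. Intronic counting was not given in the sources used here. Barcodes under 200 genes or over 25% mitochondrial UMIs were left out, and doublets that Scrublet (scanpy 1.11.5, 5% expected) called (3, 14, 3 and 3 for WT SC, KO SC, WT IP, KO IP) were removed. This left 968, 1955, 672 and 518 cells in the same order. A cell took the type with the highest share of markers seen, with at least 3 seen, ties were unassigned, and cells with 3 markers of both a leukocyte and a non-leukocyte type were left out. Leiden clusters served as an alternative. Of 23 clusters, 5 were stromal by markers. UMIs were summed per type and library. Intervals are exact Poisson for CPM, conditional binomial for ratios and Clopper-Pearson for shares, at 95%, and cover counting error only. A type with under 20 cells in a library is given by its UMIs, except for the stromal states, 3 of which have under 20 cells. Ratio intervals were tried on simulated Poisson counts with 200 changed genes per comparison. Those counts follow the model that the intervals assume, so this checks the calculation and not the spread between cells or mice. Named in full were members with at least 100 stromal UMIs, and from each list the 2 genes with most UMIs and the widest ratio in SC and in IP. The members and lists were chosen with earlier results of these data known. All 44 members matched GENCODE by Ensembl identifier, and 35 a RefSeq promoter window. Python 3.11.15, numpy 2.4.6, scipy 1.17.1 and pandas 2.3.3 were used.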

Additional observations from a re-analysis of the deposited data

Results flagged for a closer look

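In 5 members the KO over WT log2 ratio in stromal cells had opposite signs in SC and IP, each with a counting interval that left out 0. These were Col12a1 (-1.01 in SC, 1.48 in IP), Col6a6 (-1.03 and 0.68), Col14a1 (-0.34 and 0.62), Col5a1 (-0.35 and 0.16) and Col1a2 (-0.20 and 0.062). The share of all genes that met the same rule was not computed, so the number of members is not read as particular to collagens. Without the barcodes that KO SC shares with WT IP, the SC values were -0.97, -1.09, -0.34, -0.37 and -0.21. The IP over SC ratio of Col1a2 had opposite signs in the genotypes, at -0.049 in WT and 0.22 in KO. With 1 library per group these differences were not tested.

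Barcodes under the minimum of 200 genes, which the comparisons leave out, held 12 collagen UMIs in WT SC, 72 for WT IP and 57 for KO IP, above the 3 counts that a count of 0 allows. KO SC held 2.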

How the results depend on the processing

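No paired analysis was possible because each group is 1 library and the labels carry no replicate numbers, and for the same reason no library could be left out. Per-cell depth limits SC most, where KO SC held 1671919 stromal UMIs. The summed KO over WT log2 ratio in SC (-0.48) was -0.52 with doublets and mixed barcodes kept, -0.51 with at least 5 markers, -0.50 with non-matrix stromal markers, -0.44 with Leiden clusters, -0.18 with each cell weighted equally, -0.64 with cells thinned to 2000 UMIs and -0.44 with reticular cells left out. In IP (-0.15) it was -0.13 with non-matrix markers, -0.14 with clusters, -0.185 with median-of-ratios scaling, -0.22 with equal weights and -0.26 thinned. IP over SC in WT (0.29) was 0.31 with doublets kept, 0.27 with non-matrix markers, 0.35 with clusters, 0.20 with equal weights, 0.31 without reticular cells and 0.24 with median-of-ratios scaling. In KO (0.62) it was 0.67, 0.66 with at least 5 markers, 0.64 with non-matrix markers, 0.65 with clusters, 0.16 with equal weights, 0.67 thinned and 0.55 with median-of-ratios scaling. Counting the multiplexins as basement membrane gave class ratios of -0.48 for KO over WT in IP, and 1.10 in WT and 0.999 in KO for IP over SC. The smallest stromal over T cell ratio of summed collagen in a library, 9.06 on the log2 scale, was 8.42 with equal weights.

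The alternatives that follow were added after seeing the data. Leaving the shared barcodes out of KO SC gave -0.51 for KO over WT in SC and 0.65 for IP over SC in KO. With equal weights and the shared barcodes left out these were -0.70 and 0.69, and KO over WT in IP and IP over SC in WT stayed at -0.22 and 0.20. Stromal cells of at least 10000 UMIs gave 0.64 for IP over SC in KO. By stromal state, KO over WT was -0.59, -0.35 and -0.014 in progenitor, committed and F3 cells of SC, and 0.061, -0.23 and -0.16 in IP. IP over SC was 0.80, -0.47 and -0.23 in WT and 1.45, -0.36 and -0.38 in KO.

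Single values changed direction as follows. With equal weights, KO over WT in SC turned for the basement membrane class (0.21), Col4a1 (0.18), Col4a2 (0.23), Col8a1 (1.24), Col15a1 (0.30) and Col18a1 (0.52). Without the shared barcodes these did not turn, while Col14a1 stood at 0.0038. In IP, equal weights turned Col1a2 (-0.037) and Col28a1 (0.32), with or without the shared barcodes, and for IP over SC in KO they turned Col1a1 (-0.10), Col1a2 (-0.020) and Col8a1 (-0.22), and Col16a1 (-0.0061) once the shared barcodes were out. Thinning turned Col27a1 (0.68, KO over WT in IP) and Col16a1 (-0.15, IP over SC in KO), and clusters turned Col1a2 (0.0017, IP over SC in WT). The cause was not tested.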

Other observations

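The balance between chains of 1 collagen type differed between the KO and WT libraries. Col1a2 held 1.38 UMIs per UMI of Col1a1 in WT SC (1.34 to 1.43) and 1.37 in WT IP (1.34 to 1.39), against 1.63 in KO SC (1.57 to 1.69) and 1.68 in KO IP (1.65 to 1.72). Without the shared barcodes KO SC stood at 1.62. Col5a2 held 1.65 UMIs per UMI of Col5a1 in WT SC and 1.87 in WT IP, against 1.25 in KO SC (1.22 without the shared barcodes) and 1.46 in KO IP. In both pairs the KO libraries lay on the same side of the WT libraries in both depots, and the counting intervals of KO and WT did not overlap. The Col1a2 to Col1a1 balance was not shifted in every state. Committed cells of SC held 2365 and 1642 UMIs of the 2 genes in WT and 1699 and 1187 in KO, a like balance. Progenitor cells of SC held 4669 and 3503 in WT and 3902 and 2089 in KO. For Col6a1 and Col6a2 the ratio was 1.35 in both SC libraries, 1.23 in WT IP and 1.22 in KO IP. These pairs were picked after their values were seen, and with 1 library per group no test was possible.

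Col17a1, a transmembrane collagen of epithelia, had 57 UMIs in kept cells, of which 28 lay in 1 unassigned barcode and 9 in 1 dendritic cell.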
